A study of Oryza sativa with 6 samples.

Results

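The difference between a pair of rice lines in their root transcript levels was compared between plants given phosphorus (P) and plants without it, for the probes that gave the brightest signal. The quantity throughout is the line by P interaction: log2 of the ratio of 6-4 over Nipponbare under P deficiency minus the same log2 ratio under control. A positive interaction means that 6-4 stood higher relative to Nipponbare without P than with it. Members were the rice probes in the top 1 of 3 parts by mean log2 raw signal over both dyes and all 6 arrays, which gave 7165 of 21495 rice probes. All 7165 passed the filter on dim probes, 7162 of them could be tested, and 3238 carried a descriptive name from the array design. The dimmest member, AK069237, had a mean log2 signal of 9.4954 and an interaction of -0.35, and the brightest probe left out, AK072820, had 9.4952 and 0.49.

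The japonica cultivar Nipponbare was compared with 6-4, which is near-isogenic to it except for inserts from Kasalath, an indica cultivar. The control was a high supply of P in an Andosol, a soil of volcanic ash, filled into pots of 12 L, and the P-deficient plants had the same soil without added P. RNA came from 1.6 g of root, plant age is not given in the sources used here, and the labels describe 3 biological replicates for every combination of line and condition. Each array carried Nipponbare and 6-4 of 1 condition in different dyes, with 3 control arrays and 3 P-deficient arrays. Cy5 labelled 6-4 on control replicate 2 and P-deficient replicates 1 and 3, and labelled Nipponbare on control replicates 1 and 3 and P-deficient replicate 2. One near-isogenic line was used, so its inserts cannot be told apart from each other, and in whole roots fewer cells of a type and less RNA per cell cannot be told apart either.

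Plants short of P take up phosphate through proton-coupled transporters of the Pht1 family, release it from organic matter with secreted acid phosphatases and ribonucleases, and replace part of their membrane phospholipids with lipids that hold no P. In roots this response is joined by changes in nitrate uptake, carbon metabolism and growth. A line by P interaction asks whether such genes respond to P to a different extent in the 2 lines, or equally, whether the lines differ more in one condition than in the other.

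Dim spots carried extra Cy3 signal on 2 arrays, which is why the comparison was made on bright probes. The median negative control spot in Cy3 read 579 on control replicate 2 and 501 on P-deficient replicate 2, against 61.6 to 198 on the other 4 arrays, and 67.6 to 70.9 in Cy5 on all 6. The bright probes were not free of it: their median Cy3 signal was 2.51 times the negative control level on control replicate 2 and 2.30 times on P-deficient replicate 2, against 4.14 to 17.4 times elsewhere. These arrays have opposite dye orders and each carries a weight of 0.5 in the fitted interaction, where each other array carries 0.25. With the negative control spots as background, an alternative chosen after seeing the data, the count of calls given next was 203 in place of 207; beyond that the part of this signal in the interaction was not tested. Software version 8.1 was used for replicate 3 of both conditions and 7.1 for the rest, per the file headers. For P-deficient replicate 2 the headers and the submitters' processing notes differ, the notes naming 8.1, while they are the same for the other 5 arrays. Of the root-specific RCc2 and RCc3 probes 4 of 9 were members, with mean log2 levels of 11.2 to 14.8, and of the leaf markers 5 of 36 were, 1 of which, the chlorophyll a/b binding protein AK066762, reached 13.7 to 14.0. None of these 9 markers passed the test of the interaction, and their values ranged from -0.30 to 0.42.

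In the fit of all 20528 testable probes, 207 of 7162 bright probes had an interaction with an adjusted p under 0.05 (limma with Benjamini-Hochberg adjustment over all probes tested), 143 higher and 64 lower. This is 2.89%, where the share over all probes tested was 19.6% (9.38% higher and 10.3% lower). Of all bright probes 10.6% had an unadjusted p under 0.05, against 34.1% of all probes tested. The largest unadjusted p among the 207 calls was 0.00974. Since the adjustment pooled bright and dimmer probes, its 0.05 rate refers to all probes tested and not to the bright ones alone. By brightness the called share was 2.89%, 19.2% and 39.6% in the bright, middle and dim parts, and the SD of the interaction over probes was 0.23, 0.37 and 0.58. Within the bright probes the called share was 2.16%, 1.82%, 3.28%, 3.07% and 4.12% from the brightest to the dimmest of 5 equal parts, highest in the dimmest part.

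**Figure D1:**
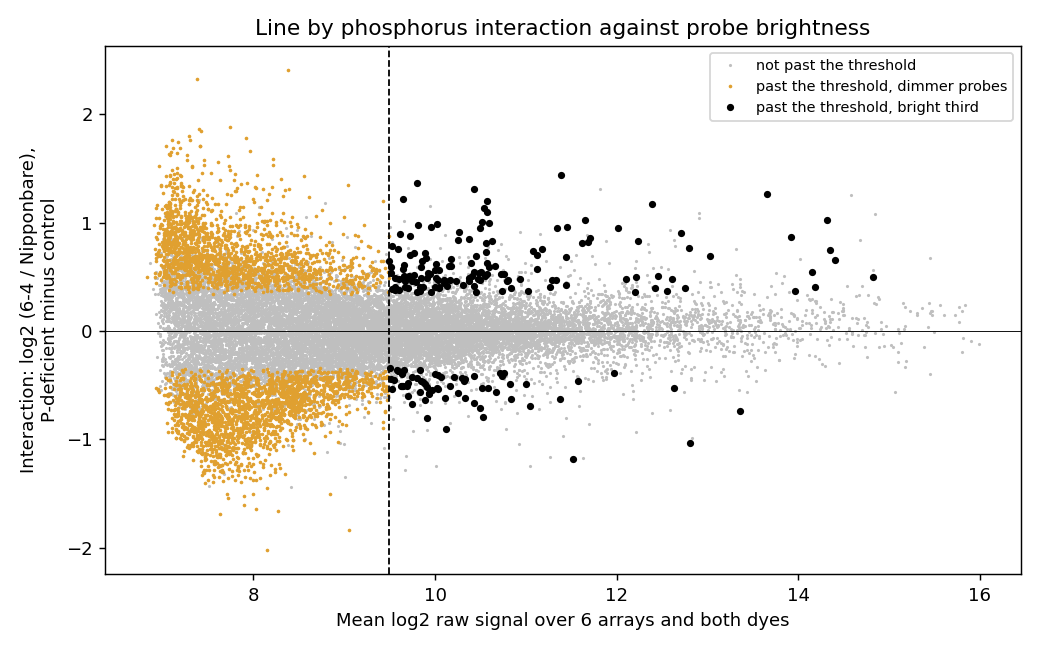
Line by P interaction (y axis, log2) against the mean log2 raw signal of each probe over both dyes and 6 arrays (x axis). The dashed line is the limit of the bright probes, to the right of which 207 probes (black) passed the threshold, and the spread is widest among the dimmest probes on the left.

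These 207 calls depended on which probes and arrays entered the fit. When the bright probes were fitted and adjusted alone, 0 passed in limma, the smallest adjusted p was 0.186, and 842 (11.8%) had an unadjusted p under 0.05. Without control replicate 2 the count was 0 (377 at an unadjusted p under 0.05), without P-deficient replicate 2 it was 12, without P-deficient replicate 3 it was 37, without P-deficient replicate 1 it was 44, and without control replicate 3 it was 648. With control replicate 2 left out, the dye term leaves P-deficient replicate 2 alone to be compared with control replicates 1 and 3. With P-deficient replicate 2 left out, control replicate 2 alone is compared with P-deficient replicates 1 and 3. Counts and values without either array thus rest on a single array of 1 condition. The count was 0 without a dye term (320 at an unadjusted p under 0.05) and 0 without background correction (666). With the software version of the file headers as a batch term 176 probes passed, with the version of the processing notes, an alternative chosen after seeing the data, 48 did, and 570 within the 4 arrays of version 7.1, while version 8.1 has 1 array per condition and gives no test. The split of 143 higher and 64 lower became 35 and 46 with arrays centred on their median in place of loess, which moved the median interaction of the bright probes from 0.01 to -0.08, and 37 and 9 with the authors' deposited ratios. With the replicate number as a block 89 passed. Fits with the block, with a version term, with an array left out or within version 7.1 have fewer residual degrees of freedom than the 3 of the fit as reported. In each of these settings, every called probe that had a value kept its direction. A call below means an adjusted p under 0.05 in the fit of all probes, and no probe named below passed in the fit of bright probes alone. Of the 50 called probes named below, 19 did not pass with the replicate block, and their adjusted p with the block stands beside each. With the version term 11 of the 50 did not pass by the file headers (adjusted p of 0.0506 to 0.0716), and 35 did not by the processing notes (0.0505 to 0.18). Ranges in brackets after the median of a gene list run over 11 other settings: the deposited ratios, median centring, no background correction, negative control spots as background, version 7.1 alone, and each array left out. The shares to set beside the calls of every list below are 2.89% of all bright probes and 19.6% of all probes tested.

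**Figure D2:**
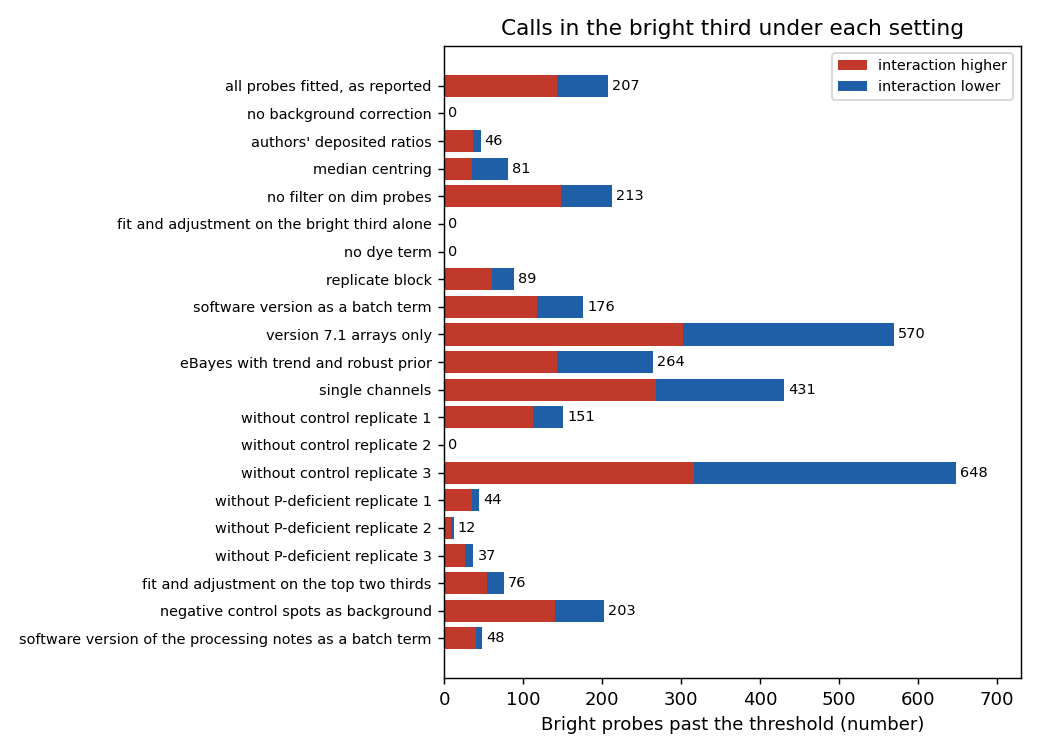
Number of bright probes past the threshold (x axis) in the fit as reported and under 20 other settings (y axis), with higher interactions in red and lower ones in blue. The count runs from 0 to 648, and settings that redefine the bright probes are not drawn.

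Of the 143 called probes with a positive interaction, 136 had a negative ratio under control, compared with 49.5% of all bright probes. The ratio went from negative to positive for 99 of the 143 and was negative in both conditions for 37. Their median log2 ratio was -0.40 under control and 0.14 under P deficiency. Since probes were called on the difference of these ratios, the values describe the calls and are not a test. Levels of 85 of the 143 were higher under P deficiency in both lines, 27 were lower in both, and 31 were lower in Nipponbare and higher in 6-4; over all bright probes these shares were 36.8%, 44.1% and 10.2%.

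Of the 64 called probes with a negative interaction, 59 were higher in 6-4 under control and lower in 6-4 under P deficiency. Their median log2 ratio was 0.23 under control and -0.26 under P deficiency. As with the higher calls, probes were called on the difference of these ratios, so the values are not a test. Levels moved in opposite directions in the lines for 25 of the 64, up in Nipponbare and down in 6-4. Calling on a negative interaction favours this pattern. In both lines 17 were higher and 22 lower, where the shares over all bright probes were 36.8% and 44.1%. Most interactions were modest: the median was 0.53 among the higher calls and -0.50 among the lower ones, and 14 of 207 reached 2-fold (12 higher, 2 lower). In ratios before adjustment for the fitted dye term, arrays of the conditions did not overlap for 111 of the 143 higher and 36 of the 64 lower calls. The share over all probes tested was 16.7%.

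**Figure D3:**
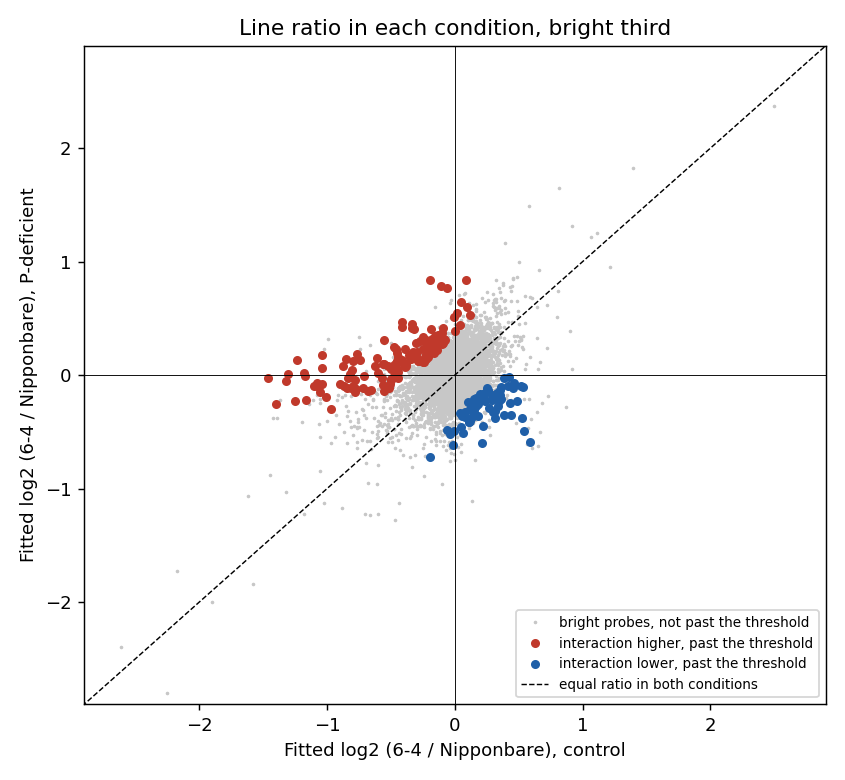
Fitted log2 ratio of 6-4 over Nipponbare under control (x axis) and under P deficiency (y axis) for the bright probes. Higher calls (red) lie to the left of the dashed line of equal ratios, with 136 of 143 below 0 on the x axis, and lower calls (blue) lie to its right.

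Among genes of phosphate uptake, 1 of the 6 bright probes was called higher and 0 lower, with a median interaction of 0.40 (0.13 to 0.58), where the median of all bright probes was 0.01. The called probe was AK101170, annotated as phosphate transporter Pht1-2, a member of the family that moves phosphate into root cells. Its log2 ratio was -0.59, -0.77 and -0.98 on control replicates 1, 2 and 3, and -0.13, -0.18 and -0.02 on P-deficient replicates 1, 2 and 3. The control arrays were all below the P-deficient ones, and the interaction was 0.65 (SE 0.13, adjusted p = 0.0197). Its log2 level went from 14.16 ± 0.20 to 15.07 ± 0.12 in Nipponbare and from 13.38 ± 0.39 to 14.96 ± 0.04 in 6-4 (SD, n = 3). The lines thus stood apart with P and close together without it. The probe was saturated on at least 1 of the 6 arrays, and any part of this in the values was not tested.

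Other phosphate transporter probes did not pass. AK062362, annotated as high affinity phosphate transporter 11, a protein known in rice for taking up phosphate delivered by mycorrhizal fungi, had the largest value of the 6 at 1.05 (SE 0.39, adjusted p = 0.107), and it too was saturated on at least 1 array. Its ratios were -0.78, -1.40 and -1.99 under control and -1.02, -0.16 and -0.06 under P deficiency, so that P-deficient replicate 1 lay among the control arrays. A second Pht1-2 probe, AK101380, had 0.43 (SE 0.26) and the OsPT1 probe AK063990 had 0.36 (SE 0.21). High affinity phosphate transporter 2, AK108907, was at -0.20 (SE 0.16), and AK100323, a match to PHO1, which loads phosphate into the xylem in Arabidopsis, at -0.19 (SE 0.10). Within the version 7.1 arrays the median of the 6 was 0.13, and it ran from 0.21 without control replicate 3 to 0.58 without control replicate 1. Near-identical family members could share signal on these probes.

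Of the acid phosphatase and ribonuclease probes, 3 of 17 were called higher and 0 lower, with a median of 0.20 (0.05 to 0.21). AK106533 is a match to a lupin metallophosphatase, an enzyme class that frees phosphate from organic esters. On it the ratios were -0.77, -0.95 and -0.87 under control and -0.18, -0.17 and 0.07 under P deficiency, an interaction of 0.77 (SE 0.12, adjusted p = 0.0101). AK071643, a match to purple acid phosphatase of sweet potato, had ratios of -0.93, -0.67 and -0.64 under control and 0.13, -0.20 and 0.15 under P deficiency, and an interaction of 0.70 (SE 0.12, adjusted p = 0.0136). For both, the groups did not overlap, and the level was higher under P deficiency in each line by 1.18 to 2.16 on the log2 scale.

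AK058502, annotated as a rice ribonuclease, had ratios of -0.53, -1.10 and -0.49 under control and -0.24, 0.10 and -0.22 under P deficiency. Its arrays did not overlap, its replicate 2 arrays lay at both ends, and its interaction was 0.74 (SE 0.11, adjusted p = 0.00823). The remaining 14 phosphatase and ribonuclease probes had interactions between -0.45 and 0.58. One of them, the purple acid phosphatase match AK110804, had the largest response of the 17, with a level higher under P deficiency by 2.55 in Nipponbare and 2.32 in 6-4, with an interaction of -0.08 (SE 0.16, adjusted p = 0.757). A large response in level and an interaction past the threshold thus did not always go together.

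Among membrane lipid genes 1 of 10 bright probes was called higher and 0 lower, with a median of 0.07 (-0.05 to 0.14). It was AK071836, a match to a glycerophosphodiester phosphodiesterase, which acts on the head groups left when phospholipids are broken down. Its ratios were -0.94, -0.67 and -0.63 under control and 0.20, -0.21 and -0.28 under P deficiency, with an interaction of 0.60 (SE 0.17, adjusted p = 0.0475, and 0.085 with the block). The groups did not overlap. Probes for digalactosyldiacylglycerol synthase, which makes the main phosphorus-free substitute lipid, were at 0.08 (AK067931, SE 0.12) and 0.05 (AK102684, SE 0.13).

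**Figure D4:**
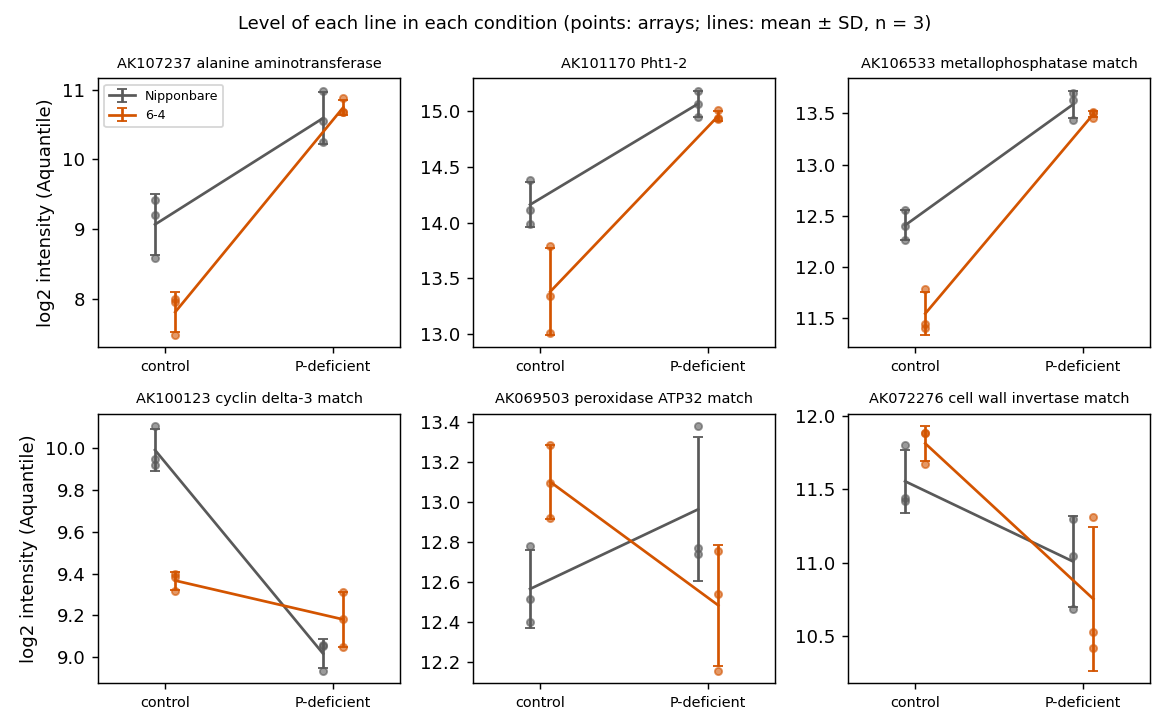
Log2 intensity (y axis, single channels after Aquantile normalization) of 6 probes in Nipponbare (grey) and 6-4 (orange) under control and P deficiency (x axis), as points for the arrays and mean ± SD (n = 3). In the upper row 6-4 starts lower and meets Nipponbare under P deficiency; below, the cyclin match drops further in Nipponbare and the other 2 probes change order.

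Nitrogen genes held the largest interaction among the described calls, although 2 of 24 were called higher and 1 lower and their median was 0.09 (-0.04 to 0.11). AK107237 is annotated as alanine aminotransferase, which exchanges amino groups between alanine and glutamate. Its ratios were -1.20, -1.10 and -1.46 under control and 0.44, 0.14 and -0.11 under P deficiency. The groups did not overlap, and the interaction was 1.37 (SE 0.18, adjusted p = 0.00681). Its log2 level was 9.07 ± 0.43 in Nipponbare and 7.81 ± 0.29 in 6-4 under control, and 10.59 ± 0.37 and 10.74 ± 0.11 under P deficiency (SD, n = 3).

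AK072215 is the Nrt2 probe, a high affinity nitrate transporter. Its ratios were -1.42, -1.28 and -1.56 under control and -0.70, -0.29 and 0.29 under P deficiency. The P-deficient arrays were spread over nearly 1 log2 unit but did not reach the control arrays, and the interaction was 1.14 (SE 0.26, adjusted p = 0.0268). Another nitrate transporter match, AK071803, went the other way at -0.57 (SE 0.14, adjusted p = 0.0345, and 0.0747 with the block), with ratios of 0.11, 0.20 and -0.28 under control and -0.40, -0.73 and -0.22 under P deficiency that overlapped. The lowest interaction in the nitrogen list was -1.24, from a probe that was not called.

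Of 20 ABC transporter probes, membrane pumps that export a wide range of compounds, 2 were called higher and 0 lower, and the median was 0.08 (0.03 to 0.12). AK107554, a match to a putative P-glycoprotein of Arabidopsis, had closely grouped arrays, at -1.07, -1.17 and -1.30 under control against 0.03, 0.04 and -0.02 under P deficiency. Its interaction was 1.20 (SE 0.11, adjusted p = 0.00532, unadjusted p = 1.63e-05), and in the fit of bright probes alone its adjusted p was 0.186. AK067653 matches an Arabidopsis ABC transporter known for its part in defence, and its ratios were -1.08, -0.86 and -1.76 under control and 0.05, -0.06 and 0.18 under P deficiency. Its groups did not overlap either, and the interaction was 1.17 (SE 0.20, adjusted p = 0.0125).

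Enzymes of specialised metabolism were called in both directions. Of 26 cytochrome P450 probes, oxygenases of many pathways, 3 were called higher and 1 lower, with a median of -0.04 (-0.11 to 0.11). The largest was AK072715, with ratios of -0.97, -1.35 and -1.33 under control and -0.19, -0.13 and -0.45 under P deficiency, and an interaction of 1.02 (SE 0.14, adjusted p = 0.00771). Its arrays did not overlap, and 6-4 stayed the lower line on all 6. The CYP98A1 match AK099695, of a family that hydroxylates precursors of lignin, was called at 0.46 (SE 0.11, adjusted p = 0.0354, and 0.099 with the block), although its arrays overlapped. A further cytochrome P450 match, AK110852, was called at 0.42 (SE 0.12, adjusted p = 0.0485, and 0.132 with the block) with arrays that did not overlap.

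Of 4 diterpenoid probes 1 was called higher, AK100333, a match to maize kaurene synthase A, which acts early in the synthesis of gibberellins and related diterpenes. Its ratios were -1.12, -0.72 and -1.41 under control and 0.72, 0.22 and -0.26 under P deficiency, with an interaction of 1.22 (SE 0.28, adjusted p = 0.0287) and groups that did not overlap. The other probe that matched the same maize gene, AK100631, had 0.09 (SE 0.28), and the median of the 4 was 0.24 (-0.14 to 0.76), with the low end without control replicate 2 and the high end without control replicate 3 or P-deficient replicate 2. AK100909, a match to 1-deoxyxylulose 5-phosphate synthase, the entry step of the plastid isoprenoid pathway, was called at 0.95 (SE 0.25, adjusted p = 0.0409). Its ratios of -1.14, -1.64 and -0.39 under control and -0.22, -0.05 and -0.69 under P deficiency overlapped. The value was 0.71 without control replicate 2 and 1.18 without P-deficient replicate 2.

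Among 10 flavonoid probes 2 were called higher and 1 lower, with a median of -0.12 (-0.18 to 0.03). The flavanone-3-hydroxylase match AK071218, an enzyme early in the pathway, had ratios of -0.79, -0.97 and -1.16 under control and -0.32, -0.33 and -0.22 under P deficiency. That is an interaction of 0.67 (SE 0.13, adjusted p = 0.0171) with no overlap, and the level was higher under P deficiency by 1.91 in Nipponbare and 2.59 in 6-4. A flavonoid 3,5-hydroxylase match, AK103567, was called at 0.82 (SE 0.22, adjusted p = 0.0435), but its value was 1.13 without control replicate 2 and 0.52 without P-deficient replicate 2. AK072654, a match to anthocyanidin reductase, which makes flavan-3-ols late in the pathway, was called lower at -0.53 (SE 0.10, adjusted p = 0.0147, and 0.0647 with the block). Its ratios of 0.11, 0.57 and 0.13 under control and 0.06, -0.47 and 0.14 under P deficiency overlapped before the dye adjustment. Only the replicate 2 arrays stood apart there. After the adjustment the ratios were 0.37, 0.32 and 0.39 under control and -0.20, -0.22 and -0.11 under P deficiency.

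**Figure D5:**
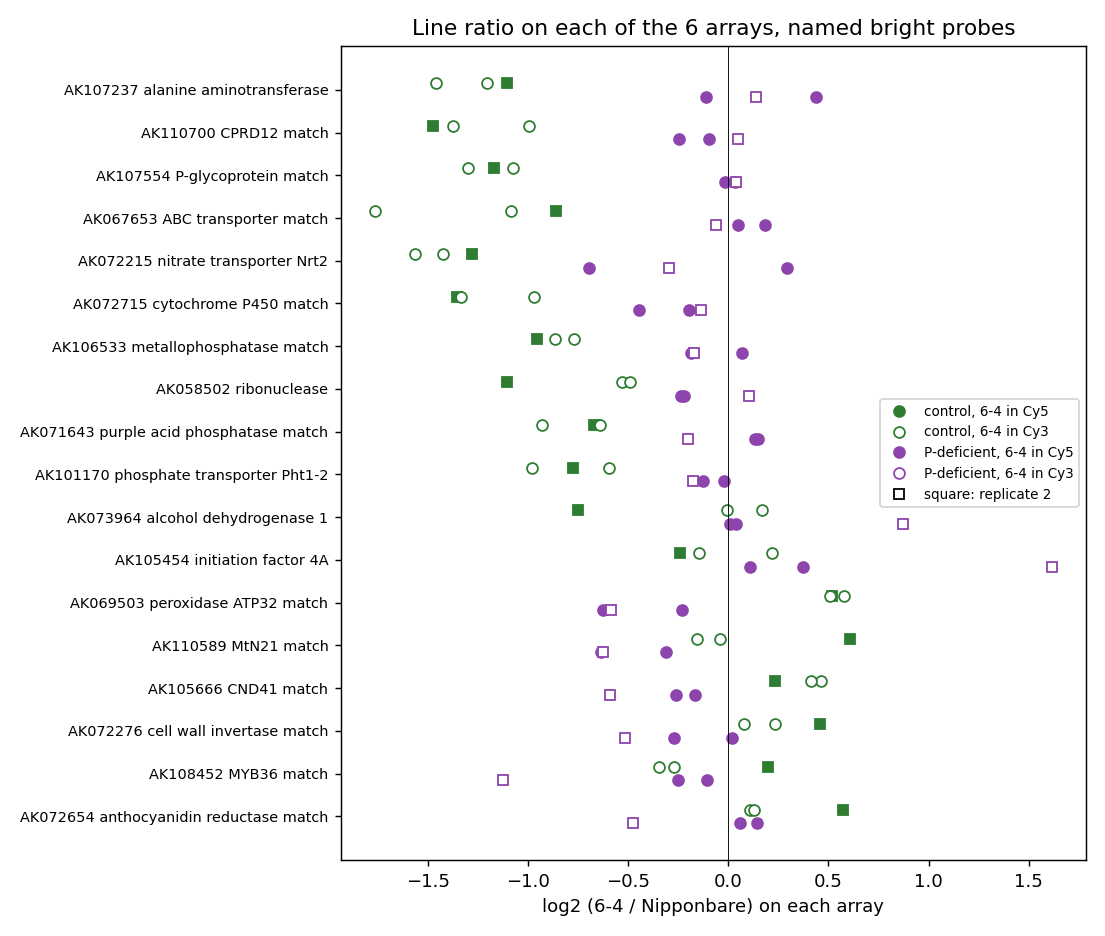
Log2 ratio of 6-4 over Nipponbare (x axis) on each of the 6 arrays for 18 named bright probes (y axis). Green is control and purple P-deficient, filled symbols have 6-4 in Cy5, and squares are the replicate 2 arrays. The ratios are before the dye adjustment, where AK073964, AK105454, AK108452 and AK072654 show the conditions apart mainly on the squares.

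The stress-related genes called higher included AK110700, a match to CPRD12, a cowpea gene named for its response to drying. Its ratios were -1.0, -1.47 and -1.37 under control and -0.25, 0.05 and -0.10 under P deficiency, with an interaction of 1.27 (SE 0.13, adjusted p = 0.0054) and no overlap. With the RD22 match AK106070 (0.76, SE 0.21, adjusted p = 0.0487, and 0.0576 with the block) it made 2 of 11 dehydration probes called higher and 0 lower, with a median of -0.04 (-0.17 to 0.05). Arrays of the RD22 match overlapped.

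Low oxygen genes had 1 of 9 probes called higher and 0 lower (median 0.08, range -0.05 to 0.14). It was alcohol dehydrogenase 1, AK073964, which regenerates NAD+ when respiration lacks oxygen. Its ratios were -0.01, -0.75 and 0.17 under control and 0.01, 0.87 and 0.04 under P deficiency. The other 4 arrays were thus near 0 while the replicate 2 arrays lay far apart, with a dye coefficient of -0.42 in the fit, from which the interaction of 0.78 (SE 0.10, adjusted p = 0.00691) was estimated. After the dye adjustment the ratios were -0.43, -0.33 and -0.25 under control and 0.43, 0.45 and 0.46 under P deficiency. The ratios of the maize Adh2 match AK101288 also gave 0.97 (SE 0.27), with an adjusted p of 0.0513, and hemoglobin 1, AK064054, was at -0.65 (SE 0.24, adjusted p = 0.11).

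Eukaryotic initiation factor 4A, AK105454, an RNA helicase of translation, was called with 1 array far from the rest. Its ratio was 0.22, -0.24 and -0.14 under control and 0.37, 1.61 and 0.11 under P deficiency, with an interaction of 1.03 (SE 0.26, adjusted p = 0.0352). Before the dye adjustment P-deficient replicate 2 alone was high. After it, the ratios were -0.20, 0.17 and -0.56 under control and 0.79, 1.20 and 0.52 under P deficiency. The interaction was 0.48 without P-deficient replicate 2 and 1.58 without control replicate 2. By contrast the cyclin delta-3 match AK100123, of a family that promotes entry into cell division, had ratios of -0.60, -0.55 and -0.72 under control and 0.25, 0.12 and 0.11 under P deficiency. This interaction of 0.76 (SE 0.10, adjusted p = 0.00754) was the 1 call among 29 histone and cell cycle probes, and the level under P deficiency minus control was -0.98 in Nipponbare and -0.19 in 6-4.

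Further described probes with large positive interactions were a serine carboxypeptidase match, AK069959 (0.999, SE 0.24), an epoxide hydrolase match, AK071470 (0.99, SE 0.26), and a beta-glucosidase match, AK102869 (0.98, SE 0.25). Their adjusted p was 0.034, 0.0413 and 0.036. Arrays overlapped for the beta-glucosidase match and not for the other 2. The beta-glucosidase value was 1.32 without control replicate 2 and 0.64 without P-deficient replicate 2. Of the 12 largest described higher calls, 9 had arrays that did not overlap before the dye adjustment, and all 12 after it. Levels of 11 were higher under P deficiency in both lines.

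Among the lower calls, the largest described value was that of AK069503, a match to the class III peroxidase ATP32, of the secreted enzymes that act on wall phenolics and hydrogen peroxide. Its ratios were 0.58, 0.52 and 0.51 under control and -0.62, -0.58 and -0.23 under P deficiency. All control arrays were above 0 and all P-deficient arrays below it, and the interaction was -1.03 (SE 0.14, adjusted p = 0.00736). Its level went from 12.57 ± 0.19 to 12.96 ± 0.36 in Nipponbare and from 13.10 ± 0.18 to 12.48 ± 0.30 in 6-4 (SD, n = 3). It was the 1 call among 42 peroxidase probes, whose median was 0.05 (-0.07 to 0.16).

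Carbon genes were called one at a time. AK072276, a match to cell wall invertase 2 of maize, which splits sucrose outside the cell, had ratios of 0.23, 0.46 and 0.08 under control and -0.27, -0.52 and 0.02 under P deficiency, an interaction of -0.63 (SE 0.12, adjusted p = 0.0168). The groups did not overlap. In the sucrose and starch list it stood against the alkaline/neutral invertase match AK100373, called higher at 0.37 (SE 0.10, adjusted p = 0.0415, and 0.175 with the block), so that 1 of 19 probes was called in each direction. Arrays of the alkaline/neutral invertase match overlapped. AK066885, a match to phosphoenolpyruvate carboxylase kinase, which activates an enzyme of organic acid synthesis, had ratios of 0.21, 0.20 and 0.05 under control and -0.44, -0.21 and -0.29 under P deficiency. It was the 1 call among 33 glycolysis and organic acid probes, at -0.46 (SE 0.12, adjusted p = 0.037, and 0.113 with the block), and its level was higher under P deficiency by 1.38 in Nipponbare and 0.91 in 6-4.

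AK105666, a match to tobacco CND41, a protease that binds chloroplast DNA, had ratios of 0.46, 0.24 and 0.41 under control and -0.26, -0.59 and -0.17 under P deficiency. Its interaction was -0.74 (SE 0.15, adjusted p = 0.0185), without overlap, but it was -0.45 without P-deficient replicate 2 and -1.02 without control replicate 2. AK110589 matches MtN21, a nodulin of Medicago from a family of membrane transporters, with ratios of -0.04, 0.61 and -0.15 under control and -0.63, -0.63 and -0.31 under P deficiency. Here the groups did not overlap but control replicate 2 stood well above the other control arrays, and the interaction was -0.80 (SE 0.16, adjusted p = 0.0195). Its value was -0.53 without control replicate 2 and -1.08 without P-deficient replicate 2.

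Regulators were also among the lower calls. AK108452 matches MYB36, which controls the Casparian strip of the endodermis in Arabidopsis, and its ratios were -0.34, 0.20 and -0.27 under control and -0.11, -1.13 and -0.25 under P deficiency. Before the dye adjustment, the conditions overlapped on replicates 1 and 3 and differed on replicate 2. After it, the ratios were 0.02, -0.16 and 0.09 under control and -0.47, -0.76 and -0.62 under P deficiency. The interaction was -0.60 (SE 0.13, adjusted p = 0.025), a value that was -0.38 without P-deficient replicate 2 and -0.82 without control replicate 2. The MYB36 match was the 1 call among 52 probes for MYB, bHLH, bZIP and homeobox factors (median -0.04, range -0.13 to -0.02). A Dof zinc finger factor, AK070563, was called at -0.53 (SE 0.14) and a receptor-like kinase match, AK112096, at -0.51 (SE 0.12), with an adjusted p of 0.0685 and 0.0941 with the block. The nitrilase-like ONIT4, AK069855, and the match to an enzyme of phospholipid synthesis, AK068868, were both called at -0.50 (SE 0.13 and 0.12), with 0.0775 and 0.0794 with the block. The pectin methylesterase match AK101962 was called at -0.56 (SE 0.15), which was -0.30 without P-deficient replicate 2 and -0.82 without control replicate 2, with 0.0624 as the adjusted p with the block. Of the 12 largest described lower calls, 5 had arrays that did not overlap before the dye adjustment, and all 12 after it. That adjustment comes from the same fit that called them.

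In metal homeostasis 1 of 24 probes was called, nicotianamine synthase 3, AK070656, which makes a chelator of iron and other metals, at -0.42 (SE 0.10, adjusted p = 0.0312, and 0.129 with the block). The replicate 2 arrays gave ratios of 0.40 with P and -0.69 without it, while the other 4 lay between -0.19 and 0.08. After the dye adjustment the ratios were 0.16, 0.06 and 0.15 under control and -0.28, -0.36 and -0.25 under P deficiency. Glutathione and antioxidant genes had 2 of 62 called higher. One of them, the glutathione synthetase match AK099555, was equal in both lines under control (-0.07, 0.07 and -0.02) and higher in 6-4 under P deficiency (0.70, 0.46 and 0.55), an interaction of 0.53 (SE 0.10, adjusted p = 0.016, and 0.0695 with the block). The other was a phospholipid hydroperoxide glutathione peroxidase match, AK101583, at 0.51 (SE 0.12, adjusted p = 0.0773 with the block).

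Some large lists held 1 call each, beside the 2.89% of all bright probes. Ribosomal proteins had 1 of 104 (0.962%), the L12 homolog AK062414, called higher at 0.51 (SE 0.11, adjusted p = 0.076 with the block), and a median of 0.09 (-0.06 to 0.19). Ubiquitin and proteasome genes had 1 of 79 (1.27%), the OsRPN7 probe AK071215, called higher at 0.38 (SE 0.10, adjusted p = 0.166 with the block), and a median of 0.00 (-0.10 to 0.06). Arrays of the OsRPN7 probe overlapped. Defence protein probes had 1 of 44 (2.27%), a match to hsr203J, AK059449, called higher at 0.59 (SE 0.14, adjusted p = 0.0669 with the block).

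Probes without a description held the largest calls in both directions. AK109771 had ratios of -1.01, -1.70 and -1.38 under control and -0.36, 0.36 and -0.39 under P deficiency, with an interaction of 1.44 (SE 0.14, adjusted p = 0.00532). AK067788, which the array design labels only as an unknown protein of Arabidopsis, had -1.20, -1.14 and -1.67 under control and 0.05, -0.01 and 0.06 under P deficiency. Its interaction was 1.31 (SE 0.15, adjusted p = 0.00567). The third was AK108539, at 1.10 (SE 0.29), whose level was higher under P deficiency by 3.37 in Nipponbare and 4.35 in 6-4. Its ratios were -1.25, -1.43 and -0.25 under control and 0.08, 0.03 and -0.10 under P deficiency. The interaction of AK108539 was 0.78 without control replicate 2 and 1.42 without P-deficient replicate 2. In the other direction AK108985 was at -1.18 (SE 0.24), AK101747 at -0.90 (SE 0.22) and AK106037 at -0.80 (SE 0.11). The value of AK101747 was -0.52 without control replicate 2 and -1.29 without P-deficient replicate 2. Arrays of the conditions did not overlap for any of these 6 probes.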

How the data were processed

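The 6 arrays had 2 colours and 22575 spots each. The deposited scanner files give an intensity per spot and dye (the mean signal, and the median of the local background), read with Agilent Feature Extraction 7.1 or 8.1, per the file headers; the labels' protocols describe linear amplification of the RNA. The authors' deposited log10 ratios of processed signals, already background-subtracted and dye-normalized per the file headers, served as an alternative after conversion to log2.

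Background was corrected with limma 3.58.1 (R 4.3.3) by normexp at an offset of 50, and each array was normalized by loess with control spots and outlier spots at weight 0. A probe was kept if 1 or more of the 4 groups had it well above background on each of its 3 arrays (20531 probes). The log2 ratio of 6-4 over Nipponbare was fitted with lmFit and eBayes, with terms for control, P deficiency and dye, and the interaction is P deficiency minus control. Benjamini-Hochberg adjustment covered the 20528 probes with all terms estimable, and calls had an adjusted p under 0.05. Of the members 3 with outlier spots had no dye estimate and were not tested. The 6 ratios printed per probe, and the overlap of arrays judged from them, are before the dye adjustment unless stated. That adjustment subtracts the fitted dye coefficient, with the sign of the dye order, from each ratio. Levels are single channels after Aquantile normalization, and the number of arrays limits their precision. The fit was tested on simulated data.

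The members and gene lists were chosen with earlier results of these data known. Words in the probe descriptions defined the 32 lists. They were corrected after the descriptions were read, and those for hormone genes, and the recognition of descriptive names, again after a fit. Named probes were the 12 largest described calls in each direction, up to 3 with the smallest p in each list with a call, all members of the phosphate transport, phosphatase and lipid lists, and the 3 largest undescribed calls per direction. Descriptions come from the array design and often name the closest entry of another species. None of the probe accessions was in the reference gene table (0 matches), so no positions or sequences are given. Deviations of same-numbered arrays from their group means correlated in mean level over the bright probes (0.39, 0.25 and 0.65), above the limit of 0.1 for pairing, so blocked values stand beside results that the block changes. Levels of differently numbered arrays correlated too, at 0.48 for control replicate 2 with P-deficient replicate 1 and 0.37 for control replicate 1 with P-deficient replicate 2. Pairs of a replicate 3 array with an array of another number gave -0.55 to -0.39. The levels thus do not settle the pairing. Line ratios of same-numbered arrays (-0.52, -0.48 and -0.30) do not settle it either, since these arrays have opposite dye orders. Differently numbered arrays of 1 dye order gave line ratio correlations of 0.12 to 0.52. Replicates are biological per the labels.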

Additional observations from a re-analysis of the deposited data

Results flagged for a closer look

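The line difference itself differed between the conditions for 207 bright probes by the test of the interaction, in the fit of all probes, and for 0 in the fit of bright probes alone. The following values are log2 interactions, P-deficient minus control, of the 12 largest described calls in each direction. On the higher side they were 1.37 for AK107237, 1.27 for AK110700, 1.22 for AK100333, 1.20 for AK107554, 1.17 for AK067653, 1.14 for AK072215, 1.03 for AK105454, 1.02 for AK072715, 0.999 for AK069959, 0.99 for AK071470, 0.98 for AK102869 and 0.95 for AK100909. On the lower side they were -1.03 for AK069503, -0.80 for AK110589, -0.74 for AK105666, -0.63 for AK072276, -0.60 for AK108452, -0.57 for AK071803, -0.56 for AK101962, -0.53 for AK072654, -0.53 for AK070563, -0.51 for AK112096, -0.50 for AK069855 and -0.50 for AK068868. Adjusted p of these 24 probes in the fit of bright probes alone lay between 0.186 and 0.317. With the negative control spots as background, 203 bright probes passed in the fit of all probes.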

How the results depend on the processing

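The 207 calls became 0 in the fit of bright probes alone, 0 without a dye term and 0 without background correction. They became 46 with the authors' deposited ratios, 81 with median centring, 89 with the replicate number as a block, 570 within version 7.1, 431 with single channels, 625 with the limit moved down to the top 50% by brightness, 134 with the top 25%, and 14 at 2-fold or more. Leaving out 1 array at a time gave 0 (without control replicate 2) to 648 (without control replicate 3). Chosen after seeing the data, a fit on the top 2 parts of 3 by brightness gave 76, negative control spots as background 203, and the software version of the processing notes as a batch term 48. The bright probes alone gave 0 with negative control spots as background, with the block, with the version term, with an intensity trend and with the authors' ratios, and 0 to 18 with 1 array left out. Of the 50 called probes named in the text, 0 changed direction under any of 20 settings, and none passed in more than 16 of them. Without both replicate 2 arrays dye and condition cannot be told apart, so the interaction could not be fitted. Without 1 of them, the other alone stands for its condition in the fitted interaction. The causes of these shifts were not tested beyond what each setting changes.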

Other observations

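Of the other lists among the bright probes, all those below except the last 2 held 0 calls in the fit of all probes. NAC and AP2 transcription factors had an interaction above 0 in 5 of 24 probes and a median of -0.09 (-0.22 to -0.05 over 11 other settings), and WRKY factors in 1 of 7 with a median of -0.15 (-0.32 to -0.10); 7 and 1 of them had an unadjusted p under 0.05. Phenylpropanoid and lignin genes had a value above 0 in 19 of 26 probes with a median of 0.11 (0.00 to 0.16), and aquaporins, which conduct water, in 5 of 7 with 0.16 (-0.01 to 0.26). Heat shock proteins (40 probes, median 0.05), cell wall loosening genes (26, 0.03), proton pumps and ion channels (28, -0.03), sugar, peptide and amino acid transporters (26, -0.03), disease resistance genes of the NBS-LRR type (12, 0.06) and hormone genes (67, 0.03) had medians on both sides of the 0.01 of all bright probes; over the 11 settings each of these 6 medians changed sign, within -0.12 to 0.14. The receptor-like kinase list (63 probes, median -0.04, -0.10 to -0.02) and the cellulose and pectin list (46, 0.10, 0.01 to 0.19) each had 1 call, lower.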
